A study of Homo sapiens with 28 samples.

Results

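In human embryonic stem cells sorted by cell cycle phase, 1092 regions carried a peak of H3K4me3 and an overlapping peak of H3K27ac in each of 4 phases, with no overlapping peak of H3K27me3 in any. They were chosen by peak presence in 12 peak lists: H3K4me3 peaks of the 4 phases that overlapped by at least 1 bp were merged, and regions were then kept by which lists held a peak there. The merge gave 32799 regions, of which the 1092 are 3.33%. Of the merged regions, 15661 carried H3K4me3 in every phase and 12283 of these had no H3K27me3 in any phase. The 1092 regions were 8.89% of that last set (exact binomial 95% interval 8.39 to 9.41, which treats regions as independent and covers counting error only). Another 44 regions carried H3K4me3 and H3K27ac in every phase but also had an H3K27me3 peak in at least 1 phase and were left out.

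The cells were a Fucci human embryonic stem cell line in a defined medium, free of serum and feeder cells, with Heregulin b1, Activin a, Longr3 IGF-1 and FGF2. Fucci cells carry a pair of fluorescent reporters whose levels rise and fall through the cycle, so live cells can be sorted by phase without a drug that halts the cycle. The sorted fractions were early G1 (labelled DN), late G1 (KO2), S phase (AzL) and G2/M (AzH), and every set of 4 values below is in that order. Each fraction had 1 ChIP-seq library for each of 4 histone marks and 1 4C library from each of 2 viewpoints, named for GATA6 and SOX17. All fractions share the cell line and the medium, no fraction has a replicate, and differences between fractions therefore carry no test. The labelled cell type was not checked against marker genes, because gene positions of the files' build were not used here.

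H3K4me3 is placed at the start of genes that are active or ready to be active, on the nucleosomes that flank the start site. H3K27ac is placed by the acetyltransferases p300 and CBP on nucleosomes of active promoters and enhancers. It cannot share a histone tail with H3K27me3, the mark of Polycomb repression, since both occupy the same lysine. In mitosis most transcription stops and many factors leave the chromosomes, which is why the marks that a promoter carries from one phase into the next are of interest in stem cells. H3K4me1 is found at enhancers and on the outer flanks of promoters.

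Acetylation in S phase was the rarest of the features required. Of the 12283 regions with constant H3K4me3 and no H3K27me3, the number with an H3K27ac peak was 6511 in early G1, 4463 in late G1, 1269 in S phase and 2616 in G2/M. The regions acetylated in every phase made up 16.8% (15.9 to 17.7), 24.5% (23.2 to 25.8), 86.05% (84.0 to 87.9) and 41.7% (39.8 to 43.7) of these. A region acetylated in S phase was nearly always acetylated in each part of G1, and mostly in G2/M as well. Of the 1269, 1252 (98.7%, 97.9 to 99.2) also had the mark in early G1, 1231 (97.0%, 95.9 to 97.9) in late G1 and 1120 (88.3%, 86.4 to 89.98) in G2/M, and none had it in S phase alone. The H3K27ac list of S phase was also the shortest, with 10268 peaks against 30168, 32521 and 19525 in early G1, late G1 and G2/M, and the part of list length in this pattern was not tested. Without the S-phase requirement 2226 regions would have been chosen, and with only the stronger 50% of each list by score 524.

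The combinations of phases largely formed a series. Acetylation was found in no phase at 5199 regions, in early G1 alone at 2267, in both parts of G1 at 1599, in all phases but S at 1134 and in every phase at 1092. These 5 combinations held most of the 12283 regions. The commonest of the rest were late G1 alone with 453 regions, early G1 with G2/M with 259, and all phases but G2/M with 124. Along this series the H3K4me3 peaks were taller and longer. The choice used the presence of peaks in these same lists and not their height, so the following is a description: the median height in early G1 was 99.4, 202, 253, 269 and 295, and the median length 900, 1250, 1550, 1812 and 1975 bp. The regions without acetylation and those acetylated only in early G1 serve as the comparison sets below.

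**Figure D1:**
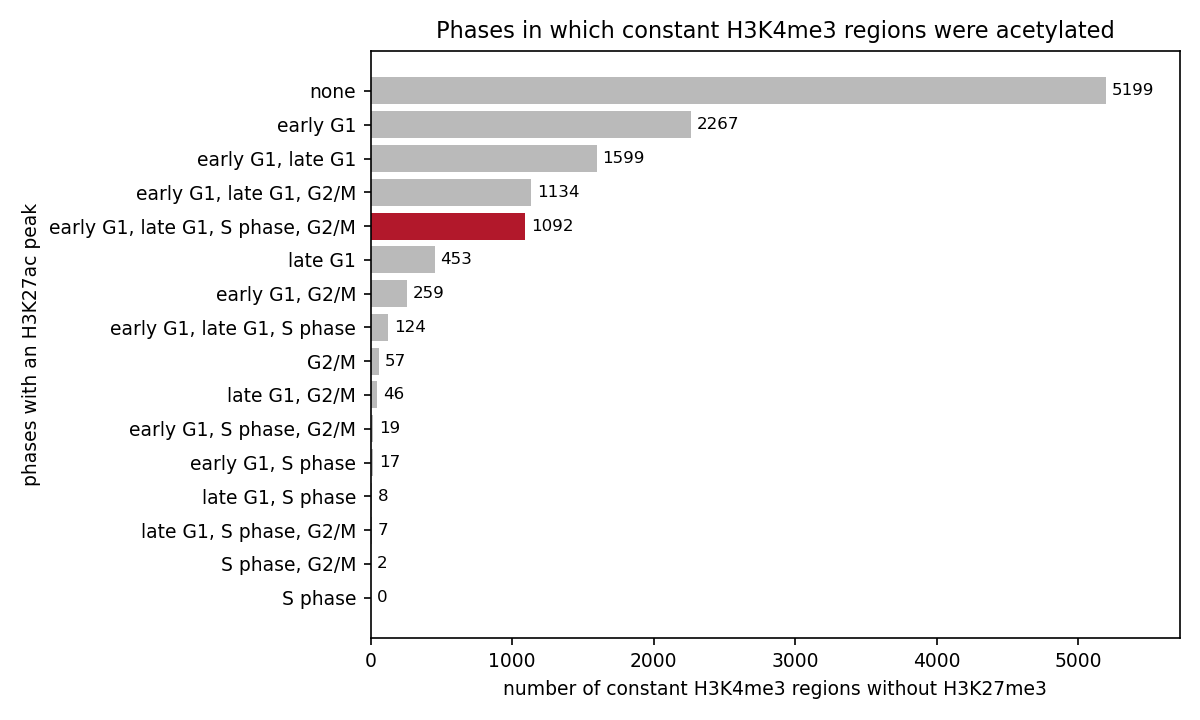
The horizontal axis gives the number of constant H3K4me3 regions without H3K27me3, and the vertical axis the combination of phases with an overlapping H3K27ac peak. The bars for no phase (5199), early G1 alone (2267) and both parts of G1 (1599) are the longest, and the bar for every phase stands at 1092.

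Peak height here is the deposited signal column of the tallest peak in a region, a value of unstated scale. It can be read within a list and not as an amount between phases. All deposited heights on chromosomes 22 and X are 0 and were treated as missing, so heights cover 1046 of the 1092 regions, those on chromosomes 1 to 21. A relative height is the height divided by its library's median over the regions that carry the mark in all 4 phases, which are 14664 regions for H3K4me3 and 4817 for H3K27ac.

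The regions acetylated in every phase carried tall H3K4me3 peaks in each list. Their median H3K4me3 height was 295 in early G1 (order-statistic 95% interval 282 to 309), 118 in late G1 (112 to 125), 162 in S phase (153 to 170) and 144.5 in G2/M (138 to 150.3). Relative to the libraries' medians of 133.9, 65.5, 76.9 and 75.6 these were 2.20, 1.80, 2.11 and 1.91, with early G1 highest. With the deposited score in place of the height they were 1.57, 2.20, 2.51 and 2.16, with early G1 lowest. Within its own list this median, taken over the tallest peak of each region, stood above 88.7%, 85.5%, 88.9% and 87.5% of all single H3K4me3 peaks. The spread among the regions was broad: the lowest heights were 20.7, 14.5, 13.95 and 14.9 and the highest 696, 624, 645 and 1032, so that the lowest members stood near the lowest peaks listed. Of the 100 tallest H3K4me3 peaks of each list, 40, 25, 29 and 18 lay in these regions, beside 5.09%, 6.43%, 5.44% and 5.64% of all listed H3K4me3 peaks.

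H3K27ac at the same regions was closer to the middle of its lists in S phase than in early G1. The median H3K27ac height was 47.1 (46.0 to 48.8), 35.7 (34.9 to 36.7), 16.4 (16.1 to 16.7) and 23.7 (23.2 to 24.3), or 1.26, 1.02, 0.967 and 0.976 relative to the library. These medians stood above 92.6%, 89.4%, 63.7% and 79.5% of the peaks in their lists. They take the tallest peak of each region and are ranked among single peaks. Regions held 2.20, 2.21, 1.39 and 1.84 H3K27ac peaks on average, and the part of this in the ranks was not tested. Of the 100 tallest H3K27ac peaks of each list, 45, 24, 13 and 14 lay in the regions, so the tallest acetylation of early G1 was found there more often than that of the other phases. The regions took up 2402, 2413, 1522 and 2010 of the listed H3K27ac peaks, which is 7.96%, 7.42%, 14.8% and 10.3% of each list.

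**Figure D2:**
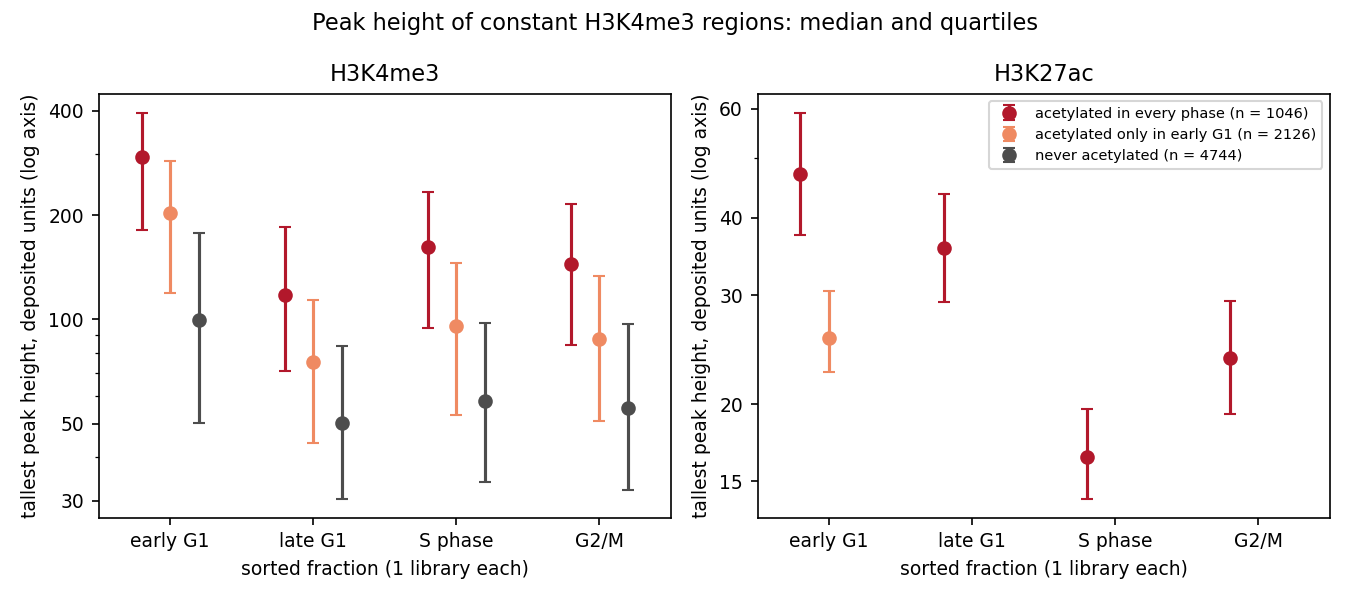
Deposited peak height (log axis) of H3K4me3 and H3K27ac by sorted fraction, for regions acetylated in every phase and for the comparison sets, with the median and quartiles marked. The H3K4me3 medians of the regions acetylated in every phase lie above those of both comparison sets in all 4 libraries, for example 295 against 202 and 99.4 in early G1.

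Against regions with constant H3K4me3 and no acetylation, the median H3K4me3 height was larger by factors of 2.96, 2.34, 2.78 and 2.60, and with the stronger 50% of each list by factors of 1.80, 1.65, 1.85 and 1.69. Against regions acetylated only in early G1 the ratios were 1.46, 1.56, 1.70 and 1.64. The sets overlapped all the same. Of the regions acetylated in every phase, 87.8%, 83.7%, 86.6% and 85.6% stood above the median of the unacetylated set, and 6.16%, 12.2%, 7.04% and 11.6% of the unacetylated set stood above the median of the regions acetylated in every phase. The early G1 H3K27ac peaks could be compared with those of the regions acetylated only then, and they were 1.84 times as tall (medians 47.1 and 25.6) and 4.56 times as long (1025 and 225 bp).

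Acetylation differed between the phases in how far it reached. Summed over the peaks of a region, the median H3K4me3 length was 1975, 1538, 1875 and 1625 bp, and the longest members reached 8475, 8275, 8225 and 7600 bp. The median H3K27ac length was 1025 bp in early G1 (quartiles 725 and 1475), 775 bp in late G1 (475 and 1150), 225 bp in S phase (150 and 400) and 475 bp in G2/M (275 and 825). H3K4me3 thus kept most of its extent across the lists while listed acetylation shrank to short peaks in S phase. The median ratio of H3K27ac length to H3K4me3 length was 55.0%, 50.7%, 13.4% and 31.4%. The longest acetylation fell in early G1 at 800 of the 1092 regions, in late G1 at 231, in G2/M at 38 and in S phase at 1, and the shortest fell in S phase at 872. A region held on average 2.20, 2.21, 1.39 and 1.84 H3K27ac peaks, and 361, 409, 792 and 548 regions had a single one. The number of peaks in the H3K27ac lists was also lowest in S phase and next lowest in G2/M, and its part in these lengths was not tested.

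Regions without acetylation had a median H3K4me3 length of 900, 775, 875 and 775 bp, so the regions acetylated in every phase were 2.19, 1.98, 2.14 and 2.10 times as long. Against regions acetylated only in early G1, at 1250, 975, 1175 and 1025 bp, they were 1.58, 1.58, 1.60 and 1.59 times as long. The ratio hardly moved between lists. A longer region has more room to overlap an H3K27ac peak, and the part of length in the choice was not tested.

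**Figure D3:**
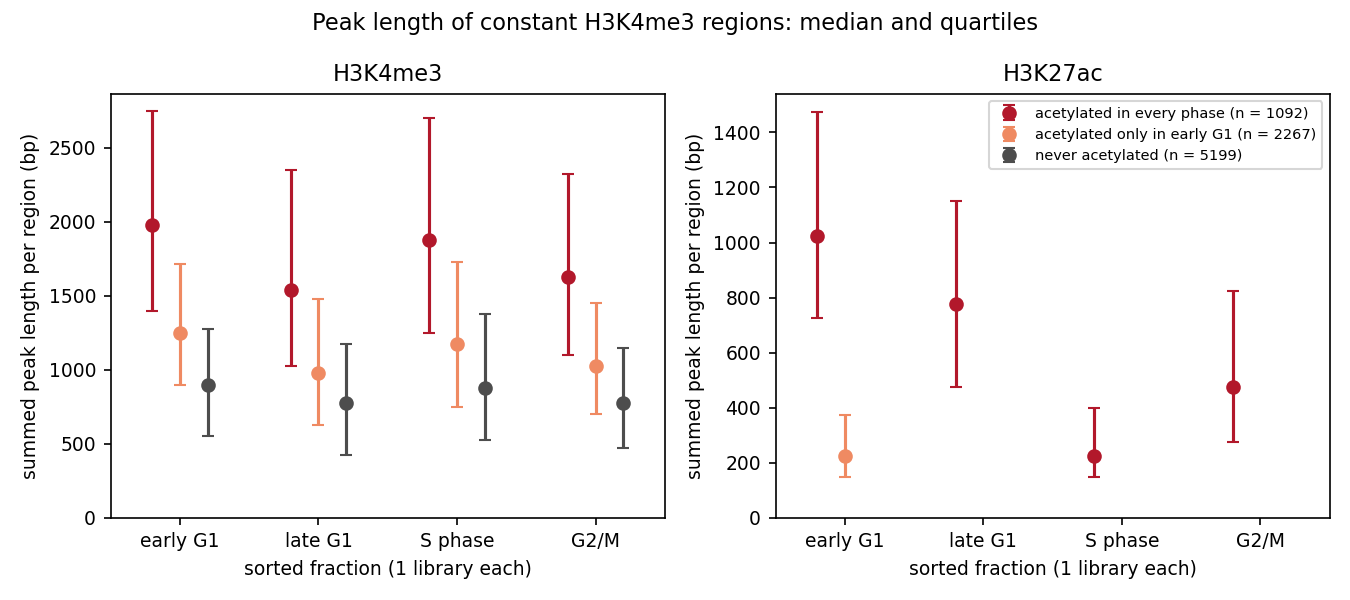
Summed peak length per region in bp (linear axis) of H3K4me3 and H3K27ac by sorted fraction, with the median and quartiles of each set. H3K4me3 medians stay between 1538 and 1975 bp in the regions acetylated in every phase, while H3K27ac medians run from 1025 bp in early G1 to 225 bp in S phase.

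Acetylation covered the H3K4me3 high point at most regions in early G1 and at fewer in S phase. Its fuller side tended to recur from list to list. The high point of H3K4me3 was stable in position: between any pair of phases it differed by a median of 37 to 75 bp. The high point of H3K27ac differed between phases by a median of 104 to 227 bp. Within a phase, the high points of both marks were 273, 436, 458 and 474 bp apart at the median, and within 250 bp of each other at 48.8%, 39.6%, 39.2% and 34.4% of the 1046 regions. An H3K27ac peak covered the H3K4me3 high point, taken as the median position over the phases, at 78.8% of regions (76.2 to 81.2), 61.2% (58.2 to 64.2), 28.6% (25.9 to 31.4) and 42.6% (39.6 to 45.7). At most regions the S-phase peaks thus did not cover the high point. Coverage in S phase was still greatest there, against 26.7% and 23.5% at 50 bp on the sides with more and less early G1 acetylation. S-phase acetylation was short, at a median of 225 bp per region, and the part of length in these shares was not tested.

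At least 90% of the acetylated length fell on 1 side of the H3K4me3 high point at 16.1%, 30.4%, 69.4% and 50.3% of regions. Short or single peaks fall on 1 side more readily, and the part of peak length was not tested. The side with more acetylation was the same in early and late G1 at 849 of 1042 regions with a fuller side in both (81.5%, 79.0 to 83.8). For early G1 and S phase it was the same at 76.6% (73.9 to 79.2), for early G1 and G2/M at 78.8% (76.2 to 81.2), and for the pairs among late G1, S phase and G2/M at 81.25% to 82.1%. Each fraction had its own ChIP library and peak list. It was the same in all 4 phases at 662 of 1035 regions (64.0%, 61.0 to 66.9). With every region turned so that the fuller side of early G1 faces right, H3K27ac in the other lists covered 41.6%, 15.3% and 27.6% of regions at 500 bp to the right in late G1, S phase and G2/M, and 17.2%, 4.21% and 8.51% at 500 bp to the left. At 1000 bp the values were 32.6%, 15.01% and 26.7% to the right and 13.3%, 4.11% and 8.60% to the left. H3K4me3 was more even in proportion, but it also reached further to the right. In S phase it covered 82.7% of regions at 500 bp to the right and 72.7% to the left. At 1000 bp it covered 55.4% to the right and 44.0% to the left. The part of this lean of H3K4me3 in the recurring side was not tested. Peaks that reach across the high point count on both sides, and which side is the gene body was not analysed here.

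**Figure D4:**
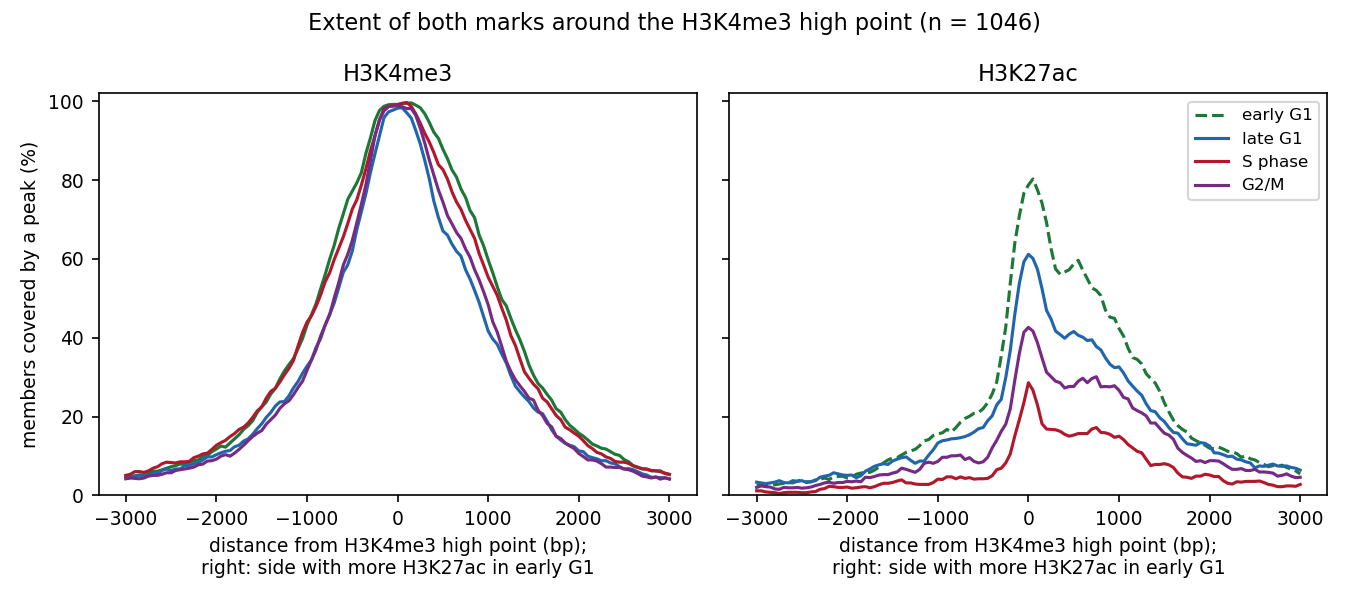
Share of 1046 regions covered by an H3K4me3 or H3K27ac peak (%) against distance in bp from the H3K4me3 high point, 1 line per sorted fraction, with regions turned so that the side with more early G1 acetylation is on the right. H3K27ac in the 3 lists that did not set the orientation is higher on the right (41.6%, 15.3% and 27.6% at 500 bp) than on the left (17.2%, 4.21% and 8.51%).

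Relative height was followed through the cycle in each region. The span between the highest and lowest relative height over the phases had a median of 0.70 on the log2 scale, and 811 of 1046 regions (77.5%) stayed under 1, that is within 2-fold, beside a median of 0.80 and a share of 66.4% over all 14664 constant H3K4me3 regions. For H3K27ac the median span was 0.69, and 828 (79.2%) stayed within 2-fold, beside 0.61 and 87.4% over the 4817 regions with constant H3K27ac. The 4817 were merged from H3K27ac peaks, whereas the 1046 are merged H3K4me3 regions. Their tallest H3K27ac peak can lie at another place in another phase, so these H3K27ac shares are of unlike units. The choice used these lists, so the shares are a description. Order among the regions was kept better by H3K4me3 than by H3K27ac. Spearman's rho between phases, over 1046 regions, was 0.91 to 0.93 for H3K4me3 among late G1, S phase and G2/M and 0.70 to 0.80 between early G1 and the others, against 0.33 to 0.51 for H3K27ac. Between the marks rho was 0.29, 0.25, 0.063 and 0.035 for heights and 0.55, 0.43, 0.15 and 0.31 for lengths. The regions share their libraries, so these values are descriptions.

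From step to step, few of the 1046 regions differed in relative H3K4me3 height by 2-fold or more. The shares are set beside those of all 14664 constant H3K4me3 regions with heights. The choice required peaks in each of these lists, so the pairs of shares are a description. From early to late G1, 67 (6.41%) stood higher, against 15.1% of all constant regions, and 78 (7.46%) stood lower, against 5.8%. From late G1 to S phase, 12 (1.15%) stood higher, against 0.859%, and 4 (0.382%) lower, against 2.18%. Both shares from late G1 to S phase were small, and the order of the regions by H3K4me3 height was also most alike between these lists. From S phase to G2/M, 19 (1.82%) stood higher, against 4.44%, and 3 (0.287%) lower, against 1.3%. From G2/M back to early G1, 63 (6.02%) stood higher, against 5.78%, and 86 (8.22%) lower, against 14.3%. The median log2 change of the regions was -0.26, 0.15, -0.13 and 0.24 over the 4 steps, beside 0.00, -0.03, -0.03 and 0.05 for all constant regions. As a group they thus stood somewhat higher in early G1 and S phase than in late G1 and G2/M relative to each library, by less than 2-fold, an order that for early G1 does not hold by score.

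For H3K27ac, steps that touch early G1 could be read against a wider set of constant H3K4me3 regions, which includes the 1046 themselves. From early to late G1, 9 regions (0.860%) stood 2-fold higher, against 0.707% of the 3958 constant regions acetylated in both, and 73 (6.98%) lower, against 6.7%. From G2/M to early G1, 101 (9.66%) stood higher, against 8.12% of 2487, and 13 (1.24%) lower, against 1.09%. These shares were near the background, though the regions that both sets hold draw the values together. The medians, -0.31 and 0.34 on the log2 scale, were also near those of all such regions, at -0.30 and 0.31. Steps between the other phases are not given, since the regions acetylated in every phase make up most of those with H3K27ac on both sides.

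The tallest H3K4me3 among these regions, by mean relative height over the phases, is described by position, as the genes there were not analysed here. All positions are as deposited and read as hg19. The region at chr1:154598976-154600675 came first, with H3K4me3 heights of 441, 419, 579.6 and 1032 and a mean relative height of 7.72. Its G2/M peak was the tallest H3K4me3 peak among the 1046, yet its H3K27ac heights of 36.9, 27.6, 16.9 and 17.4 were near or below the medians of the 1046. The second, chr2:61762401-61765875, had H3K4me3 heights of 514, 624, 645 and 604, or 3.83, 9.54, 8.39 and 7.99 relative to the library, lowest in early G1, and H3K27ac at 49.1, 48.4, 22.5 and 36.9. The third, chr1:155164551-155166600, lay on the same chromosome as the first, with H3K4me3 at 402, 511, 548 and 651. It differed from the first in its acetylation, which was tall at 87.6, 60.9, 26.2 and 44.9 and long at 2000, 1775, 1050 and 1500 bp, with an S-phase length far above the median of 225 bp.

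In the next regions tall H3K4me3 came with varied acetylation. At chr17:27618401-27621775 the H3K4me3 heights were 469.7, 548, 496 and 603, and H3K27ac stood at 36.5, 88.5, 17.2 and 29.2, with late G1 far above the other lists. At chr12:57881626-57882975, a short region of 1350 bp, H3K4me3 was 455, 471, 553 and 615 and H3K27ac 45.0, 93.2, 33.0 and 27.2. Late G1 was again the high library for acetylation at this region. At chr20:47893351-47900050, which spans 6700 bp, H3K4me3 was 611, 515, 425 and 564, and the acetylated length was 3175, 2975, 200 and 1900 bp. At chr10:101987776-101989775 H3K27ac was 20.4, 28.2, 14.2 and 33.1, below the medians of the 1046 except in G2/M, beside H3K4me3 of 318, 504, 593 and 553. The other members of the 10 tallest lay at chr14:38659701-38665250, chr1:155656651-155659950 and chr1:93544151-93546975. Over all 10, mean relative H3K4me3 height ran from 5.95 to 7.72 and mean relative H3K27ac height from 0.871 to 1.87, so none combined the tallest of both marks.

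The 10 regions with the tallest H3K27ac were 10 others, with none in common. Lists of 10 among 1046 regions would seldom share any if the marks were unrelated, so this says little. Of the 100 tallest by H3K27ac, 19 were among the 100 tallest by H3K4me3, a list that holds 100 of the 1046 regions. First came chr1:114573601-114577825, with H3K27ac heights of 61.9, 104, 43.5 and 66.1 and acetylated lengths of 3500, 4100, 2175 and 3300 bp, nearly the whole length of its H3K4me3 in every phase but S. Its H3K4me3 heights were 206, 179, 184 and 199. At chr12:9065751-9069850 H3K27ac was 50.1, 77.6, 51.3 and 69.9, and its 3575 bp of acetylation in S phase were the most of any of the 1092 in that list. Here early G1 was the low phase, with 1225 bp of acetylation. At chr15:93443476-93447400 it was 82.9, 90.2, 33.5 and 64.4, with 3300, 3700, 2675 and 3425 bp. These 3 regions had long acetylation in S phase, at 2175, 3575 and 2675 bp, unlike the typical member with 225 bp. Lengths count whole peaks, also where they reach beyond the region.

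The fourth region was unlike the others. At chr1:16839676-16840950 H3K27ac reached 140.2 in early G1, the tallest of the 1046, and stood at 63.4, 26.1 and 49.7 in the later phases, but H3K4me3 was only 42.1, 16.7, 24.05 and 29.6. Its acetylation, at 1425, 1550, 425 and 1200 bp, was longer than its H3K4me3 of 1025, 75, 500 and 350 bp in every phase except S. At chr6:26223626-26226450 H3K4me3 was also modest, at 161, 33.7, 53.4 and 70.9, beside H3K27ac of 65.3, 57.6, 39.0 and 68.8. The opposite case was chr11:65265076-65273225, where both marks were tall: H3K4me3 stood at 502, 371, 483 and 497 and H3K27ac at 103, 67.7, 37.0 and 50.7. This region, 8150 bp long, was also among the 5 longest by H3K4me3. The tallest S-phase H3K27ac peak among them, 55.2, lay at chr2:105953126-105955050, where heights of 65.8, 60.2, 55.2 and 50.9 were 1.76, 1.72, 3.25 and 2.09 relative to the library, highest in S phase. Mean relative H3K27ac height of the 10 ran from 2.12 to 2.47, and the remaining regions were chr10:75503076-75505050, chr5:147248726-147254450 and chr6:32935426-32942950.

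The longest H3K4me3 domains varied less in extent between phases than their acetylation did. At chr7:23505926-23514100 H3K4me3 covered 7975, 7225, 8175 and 6800 bp and H3K27ac 2075, 1375, 700 and 1050 bp. At chr13:56150226-56158325 H3K4me3 covered 7425, 7400, 8100 and 6725 bp, and acetylation was longest in late G1, at 3125, 5175, 875 and 3175 bp. At chr3:176037176-176045225 the values were 7500, 7450, 7775 and 6850 bp for H3K4me3 and 2625, 3350, 475 and 2625 bp for H3K27ac. The longest of all, on chromosome 8, had H3K4me3 over 8475, 8275, 8225 and 7600 bp and H3K27ac over 1625, 2000, 100 and 1725 bp. S-phase acetylation was the shortest in each of the 4 domains given here, and S-phase H3K4me3 was the longest in all but that on chromosome 8.

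At the other end, the shortest members had H3K4me3 near the lowest peaks listed. The shortest of all, chr1:200379351-200379650, was 300 bp long with H3K4me3 heights of 26.3, 22.3, 21.98 and 24.5, while its H3K27ac stood at 72.3, 53.7, 17.96 and 39.9. In early G1 a single acetylated stretch of 2075 bp reached well beyond it, and the same peak also overlapped chr1:200380601-200381975, a region that was not chosen because it lacked S-phase H3K27ac. The next were chr13:48575576-48576050, with H3K4me3 at 20.7, 16.7, 25.9 and 17.9, and chr6:19691976-19692550, at 28.8, 19.8, 17.4 and 16.6. H3K27ac at the first of these, at 36.2, 35.3, 18.4 and 18.01, lay below the lower quartile of the 1046 in early G1 and G2/M only. At the second it was 39.5, 33.5, 27.7 and 28.7, above the median in S phase and G2/M. Low H3K4me3 at these regions thus did not go with low H3K27ac in every list.

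A few members moved far through the cycle. The largest span of relative H3K4me3 height was 3.38 (log2), at chr1:158968651-158969250, where early G1 was low and G2/M high (24.8, 105, 79.1 and 145). At chr2:85645501-85646275 H3K4me3 was 61.9, 282, 299 and 328, a span of 3.23, and H3K27ac was 28.4, 33.6, 34.0 and 69.6, a span of 1.91. Early G1 was the lowest library for both marks there and G2/M the highest, relative to each list. At chr20:39657226-39659300 G2/M alone was high for H3K4me3 (228, 239.6, 247 and 672), without a matching H3K27ac height (60.2, 32.4, 18.4 and 18.2). All 5 regions with the largest H3K4me3 span, the others being chr12:76422776-76426625 and chr1:154579526-154581200, had their lowest relative height in early G1.

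For H3K27ac the largest span was 2.08, at chr19:8674426-8676375, where late G1 stood apart (24.5, 96.8, 23.3 and 40.02). At chr3:48753276-48754800 acetylation was highest in early G1 and below the median of these regions in G2/M (86.9, 47.2, 16.9 and 13.7), and H3K4me3 was 629, 163, 209.8 and 181. At chr6:21593401-21598700 G2/M was highest (27.5, 45.7, 38.5 and 68.7) while relative H3K4me3 spanned only 0.29. The steadiest members were chr7:72475501-72477350 for H3K4me3, with a span of 0.03 (297, 144, 172 and 168), and chr1:151227001-151228400 for H3K27ac, with a span of 0.06 (45.9, 41.4, 20.5 and 29.7). Their heights follow the library medians almost exactly.

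Just inside the rule stood the regions with the lowest S-phase H3K27ac peaks. The 5 lowest were between 10.5 and 11.4, near the 5th percentile of that list at 11.9, and 75 to 100 bp long. At chr4:24584151-24586525 H3K27ac was 37.4, 22.9, 10.8 and 15.4 beside H3K4me3 of 380.3, 237, 229 and 215, so a region could enter on a peak at the limit of the list and still carry tall H3K4me3. Just outside stood regions with H3K27ac in all phases but S. At chr20:44599751-44601500 H3K27ac was 98.6 in early G1, 56.5 in late G1 and 25.3 in G2/M, all above the medians of the 1092, with no S-phase peak. At chr17:37617576-37620350 it was 57.3, 65.1 and 34.7 in the same phases, again with no S-phase peak. The 44 regions left out for H3K27me3 carried it in early G1 at 21, in late G1 at 29, in S phase at 29 and in G2/M at 20, and in all phases at 11. Among them, chr1:150206151-150209050 had H3K4me3 at 379.6, 632, 757 and 750.2 and H3K27ac at 37.2, 97.0, 58.1 and 90.1, above every member by mean relative H3K4me3 height.

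H3K4me1 had no role in the choice, and it seldom overlapped these regions. An H3K4me1 peak lay on 8, 8, 8 and 12 of the 1092 regions (0.733%, 0.733%, 0.733% and 1.099%), and on 31 in any phase (2.84%, 1.94 to 4.01), against 1.41% of regions acetylated only in early G1 (0.967 to 1.99) and 1.02% of unacetylated regions (0.765 to 1.33). On the flanks it was more frequent than beside the comparison sets. Within 2500 bp of the region an H3K4me1 peak was listed in any phase at 232 regions (21.2%, 18.9 to 23.8), against 224 of 2267 (9.88%, 8.68 to 11.2) and 396 of 5199 (7.62%, 6.91 to 8.37), and by phase at 42, 78, 103 and 104 of the 1092. The interval for the regions acetylated in every phase does not overlap the others. These regions were also longer than both comparison sets, which leaves more room for overlap, and the part of length was not tested. The shares rest on 1 library per phase, and the H3K4me1 lists are short, with 1878, 4017, 6280 and 6156 peaks.

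H3K27ac peaks were also listed more often in the surroundings. An H3K27ac peak outside every H3K4me3 region lay within 20 kb at 45.3%, 54.1%, 30.7% and 40.7% of the regions, against 23.7%, 25.4%, 8.12% and 16.5% for regions acetylated only in early G1 and 19.7%, 27.6%, 8.56% and 16.7% for unacetylated ones. The gap was present in each list, and in S phase the share of the regions acetylated in every phase was 30.7% (27.95 to 33.5) against 8.12% (7.02 to 9.32) and 8.56% (7.81 to 9.35). The same H3K27ac lists defined the 3 sets, so the H3K27ac shares are a description. The part of region length, and of acetylated stretches listed as several peaks, was not tested. H3K27me3 was rare nearby. A peak of it lay within 10 kb in some phase at 41 regions (3.75%, 2.71 to 5.06), at 250 of those acetylated only in early G1 (11.03%, 9.77 to 12.4) and at 983 unacetylated ones (18.9%, 17.9 to 20.0). Overlap with H3K27me3 was barred for all 3 sets, so these shares describe the neighbourhood alone.

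The restriction sites of the 4C table gave a feature of sequence that the choice did not use. HindIII sites were at 270.2 per Mb in the regions acetylated in every phase (exact Poisson interval 250.5 to 291.1, from 696 sites in 2.58 Mb), against 201 (186 to 216) in those acetylated only in early G1 and 183 (173 to 194) in unacetylated ones. The whole table gave 271, from 837622 sites in 3094.7 Mb. Whether that length includes unsequenced stretches was not checked, so it is no firm average. In the 500 bp around the early G1 high point of H3K4me3, where region length has no part, the densities were 216 (178 to 260), 149.6 (127 to 175) and 142 (128 to 159), and the first interval overlaps neither of the others. The regions acetylated in every phase thus held HindIII sites at a higher density than both comparison sets, over their full length and around the high point.

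The 4C reads within 5 kb did not set these regions apart. Sites within 5 kb of them, on chromosomes other than the viewpoint's, held 1.41, 1.44, 1.43 and 1.47 times the mean reads of all such sites from the GATA6 viewpoint and 1.24, 1.49, 1.35 and 1.47 times from the SOX17 viewpoint. Near regions acetylated only in early G1 the ratios ran from 1.09 to 1.52. Near unacetylated regions they ran from 1.37 to 1.71, so the ranges overlap. In each SOX17 library the tallest of all such sites, with 11801 reads in G2/M, lay near an unacetylated region. Within 1 kb the ratios were 1.23 to 1.67 near the regions acetylated in every phase and 1.18 to 1.44 near unacetylated ones. Near regions acetylated only in early G1 they were 0.875 to 1.26, lower in each library than near those acetylated in every phase. The reads are amplified products without molecular identifiers, and a few sites hold many of them.

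The regions were spread over all the autosomes and chromosome X in unequal shares. Of the constant H3K4me3 regions without H3K27me3 on each chromosome, the regions acetylated in every phase made up 12.9% on chromosome 1 (157 of 1214, 11.1 to 14.95), 12.5% on chromosome 13 (29 of 232, 8.53 to 17.5), 11.9% on chromosome 5 (66 of 553, 9.35 to 14.9) and 11.8% on chromosome 6 (84 of 714, 9.49 to 14.4). The lowest shares were 2.84% on chromosome 16 (16 of 564, 1.63 to 4.57), 3.61% on chromosome 22 (10 of 277, 1.74 to 6.54) and 5.47% on chromosome 19 (53 of 969, 4.12 to 7.09). On chromosomes 1 and 16, 14.3% and 4.26% of these regions were acetylated in S phase, and 59.8% and 46.5% in early G1.

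**Figure D5:**
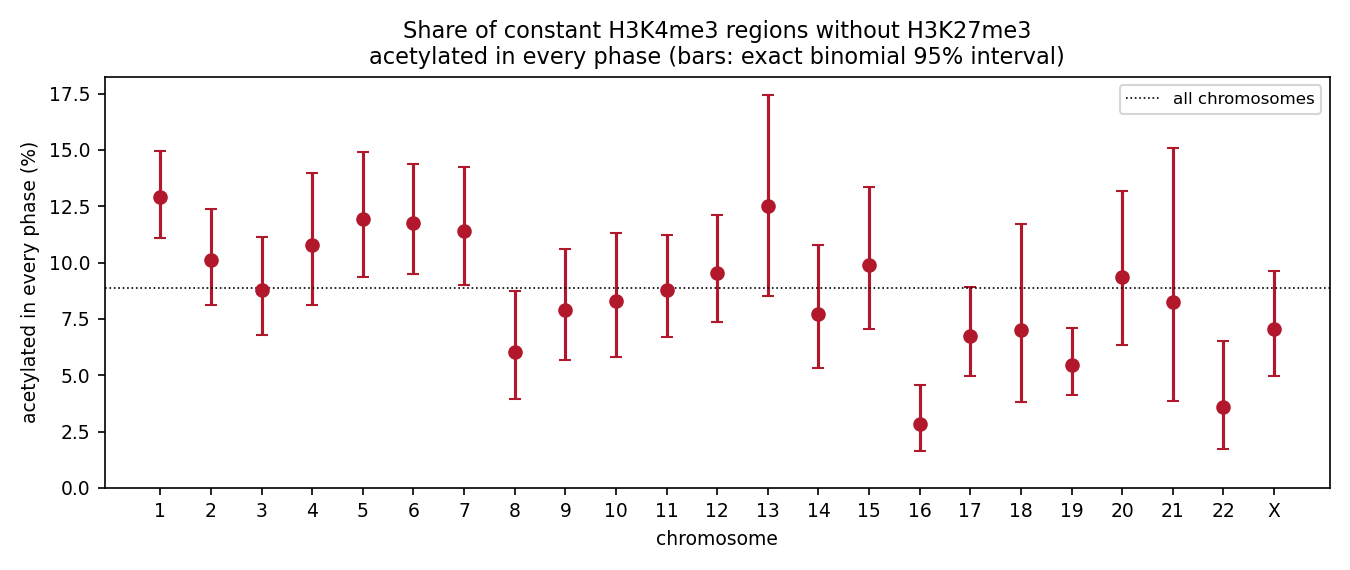
For each chromosome on the horizontal axis, the vertical axis gives the share (%) of constant H3K4me3 regions without H3K27me3 that were acetylated in every phase, with exact binomial 95% intervals that cover counting error only. Chromosome 1 stands at 12.9% and chromosome 16 at 2.84%, on either side of the 8.89% found over all chromosomes.

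Within chromosomes a few stretches held many such regions. The window of 5 Mb with the most was chr6 from 25 to 30 Mb, with 20 of 120 constant regions (16.7%), followed by chr1 from 150 to 155 Mb with 14 of 76 (18.4%). The densest among the 10 windows with the most was chr13 from 45 to 50 Mb, with 9 of 25 (36.0%), and chr5 from 130 to 135 Mb had 10 of 35 (28.6%). Others of the 10 were near the 8.89% of all chromosomes. These were chr19 from 50 to 55 Mb, with 9 of 103 (8.74%), and chr11 from 60 to 65 Mb, with 8 of 88 (9.09%). The regions were otherwise scattered: 72 (6.59%) lay within 10 kb of another, 164 (15.02%) within 50 kb, and the median distance to the nearest was 486 kb. Neighbouring regions can share an H3K27ac peak or a promoter pair, and they were not merged.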

How the data were processed

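The members and lists described above were chosen with earlier results of these data known. The series holds 28 samples of 1 cell line: 16 ChIP libraries, 4 inputs, which were not analysed here, and 8 4C libraries, each grouped by its label. Per the submitters' processing notes, the tool Bowtie 0.12.7 and 2 builds, hg19 and mm9, were involved, with no role stated. The names of the deposited peak lists carry the word hpeak, which is also the name of a peak caller. Not given in the sources used here are its version, its settings and any use of inputs, and the reads behind each ChIP list are unknown. Each ChIP file lists the authors' peaks for 1 library, with start, end, length and high point on a 25 bp grid. The authors' signal column, of unstated scale, was used as the height, and the authors' deposited score column, more negative for taller peaks, was used only in alternatives. The deposited 4C table gives counts of reads per restriction site.

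Computations ran under Python 3.11.15, numpy 2.4.6, pandas 2.3.3, scipy 1.17.1 and matplotlib 3.10.9, and the overlap counts were tested on simulated lists. With 1 library per mark and phase, no p-value was computed. Shares carry exact Clopper-Pearson 95% intervals, medians order-statistic intervals and site densities Poisson intervals, all treating regions or sites as independent. Regions named were the 10 tallest by mean relative height of each mark, the 5 longest and shortest, the 5 largest and smallest spans of each mark, and those just inside and outside the rule. The text gives a part of them. The design also held 12 gene lists and cell type markers. They need gene positions of hg19 and were not analysed here, so regions carry no gene names and no sequences. Alternatives were stricter or equal lists, other overlap and merging rules, scores or ranks in place of heights, longest peaks and other distances.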

Additional observations from a re-analysis of the deposited data

How the results depend on the processing

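Each mark and phase has 1 library, so no result has a replicate check, and the depth of the ChIP libraries is unknown. No paired analysis was possible because the labels give no replicate numbers. Counts of genes at the regions were not run. Of 94 alternative values, 38 moved by less than their interval or, for counts, less than 1.5 times. The number of regions was 1043 with H3K27ac peaks at least 50% inside, 759 with H3K27ac lists of equal length, 975 with H3K4me3 peaks of at least 500 bp, 1078 with no H3K27me3 within 2500 bp and 1144 after merging across 500 bp. It moved to 2226 without the S-phase requirement. Chosen after seeing the data, dropping early G1, late G1 or G2/M gave 1099, 1111 and 1216.

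With the stronger 50% of each list by score there were 524 regions, 515 of them overlapping one of the 1092. Relative H3K4me3 heights were then 1.55, 1.44, 1.57 and 1.46, relative H3K27ac heights 1.23 in early G1 and 0.942 in S phase, and height ratios to unacetylated regions 1.80, 1.65, 1.85 and 1.69. Lengths were 2150, 1650, 2050 and 1725 bp for H3K4me3 and 1175, 875, 300 and 575 bp for H3K27ac, and H3K4me1 lay on 0.382% in G2/M. Scores in place of heights gave 1.57, 2.20, 2.51 and 2.16 for relative H3K4me3, which puts early G1 lowest in place of highest, and 2.74, 2.85, 3.30 and 2.92 for the ratios. The cause was not tested. Ranks, which cannot exceed the list, gave 1.31, 1.26, 1.29 and 1.23 for H3K4me3, 1.12 (early G1) and 0.941 (S phase) for H3K27ac, and ratios of 1.46, 1.42, 1.43 and 1.39. The longest single peak was 1875, 1300, 1750 and 1400 bp for H3K4me3 and 725, 525, 200 and 350 bp for H3K27ac. H3K4me1 within 2500 bp was 3.85%, 7.14%, 9.43% and 9.52%. The 4C ratio became 1.23 (GATA6, S phase) at 1 kb and 1.46 (SOX17, early G1) at 20 kb. By share of sites with a read it was 1.18 and 1.25 for GATA6 in G2/M and late G1 and 1.16 for SOX17 in G2/M. In every alternative run, the ratios to unacetylated regions stayed above 1.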
